A study of Mus musculus with 2 samples.

Results

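Mature neutrophils of mouse bone marrow were taken here from a single-cell RNA-seq table by the level of 3 Ifit transcripts, and 506 of the 10610 cells in the table met the rule. A cell counted as a mature neutrophil when S100a8 and S100a9 together reached 400 unique molecular identifiers (UMIs, 1 per captured RNA molecule) per 10000 UMIs of the cell, Ltf, Camp and Ngp together stayed below 400, and C1qa, C1qb and C1qc together stayed below 20. It counted as Ifit-high when Ifit1, Ifit3 and Ifit3b together reached 30 and the stefin A transcripts Stfa1, Stfa2, Stfa3 and BC100530 together stayed below 20. Of the 506 cells, 325 came from the control library and 181 from the library of mice with middle cerebral artery occlusion (MCAO), a model of stroke in which a large artery of the brain is blocked. The comparison cells, called Ifit-low, were mature neutrophils of the same library with an Ifit sum below 30 and a stefin A sum below 20, and numbered 933 and 995. The cells were chosen by their measured Ifit levels, so differences between Ifit-high and Ifit-low cells are a description of what the rule selected.

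Both libraries were made on the BD Rhapsody microwell platform from unsorted marrow of tibias and femurs after red cell lysis, and both came from male wild-type (WT) mice that were 8 to 10 weeks old. The control library held 5212 cells and the MCAO library 5398. Each condition had 1 library, so no test between conditions was possible and every interval given covers counting error only. How many animals a library pooled, when marrow was taken after the artery was blocked and how control mice were handled are not given in the sources used here.

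Interferons are secreted by infected or stressed cells and act through JAK kinases and STAT transcription factors, which together with IRF9 bind interferon-stimulated response elements in the promoters of many genes. The IFIT proteins are among the most strongly induced products of these genes and bind foreign RNA in the cytoplasm. Neutrophils pass through a marrow sequence in which primary granule genes are used first, secondary granule genes next and gelatinase granule genes last, and mature cells carry the receptors CXCR2 and G-CSF receptor. Neutrophils with an interferon signature are a known mature subset in mouse marrow and blood.

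The neutrophil identity of the Ifit-high cells held by markers outside the rule. Csf3r, the G-CSF receptor gene, stood at 16.9 UMIs per 10000 in control and 13.7 in MCAO Ifit-high cells. Cxcr2 stood at 51.2 and 47.2, against 0.618 and 0.552 in B-lineage cells gated on Cd79a and Cd79b. Retnlg, a late neutrophil gene, reached 312 and 354, against 347 and 285 in Ifit-low cells. In control Ifit-high cells Ly6g, Mmp8 and Mmp9 stood at 5.999, 67.8 and 38.8, below 8.74, 84.0 and 46.0 in Ifit-low cells. In MCAO they stood at 11.6, 61.7 and 52.0, against 8.47, 62.4 and 44.3. Summed over each Ifit-high cell, the lists for macrophages, T and NK cells, plasmacytoid dendritic cells and basophils and eosinophils had a median of 0 in both libraries. The monocyte list had a median of 17.97 in control and 18.5 in MCAO Ifit-high cells, below the 24.4 and 24.8 in Ifit-low cells. The B-lineage list had a median of 11.97 and 6.68, and in Ifit-low cells 11.6 and 6.44, so it differed between libraries and hardly between the cell groups. The erythroid list had a median of 10.1 and 20.1. Mertk was at 0 in Ifit-high cells of both libraries, Klrd1 and Ccr9 were at 0 in control and Ebf1 was at 0 in MCAO. The part of free RNA from other cells in the results was not tested.

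The Ifit-high cells were shallower than the rest. Their median was 2205 UMIs and 882 genes per cell in control and 2705 UMIs and 984 genes in MCAO, against 2972 and 3603 UMIs in Ifit-low cells. The whole libraries had medians of 3344 and 4952 UMIs. Simulated-doublet scoring marked 2 control and 0 MCAO Ifit-high cells, and leaving marked cells out gave shares of 25.3% and 13.03%. The cells carry running numbers in place of barcodes, so barcodes shared by the libraries could not be counted.

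The rule's 3 genes lie in 1 cluster on chromosome 19 (GENCODE annotation of GRCm38), all on the plus strand: Ifit3 at chr19:34583531-34588731, Ifit3b at chr19:34607970-34613401 and Ifit1 at chr19:34640871-34650009. Ifit2 lies next to them at chr19:34550694-34576419 and Ifit1bl1 on the minus strand at chr19:34592891-34601956, and neither was part of the rule. Ifit3 and Ifit3b are near-identical copies, so the split of UMIs between them is uncertain and their sum is the safer quantity. The upstream stretches below come from the RefSeq promoter table (GRCm38.p6) and are shown because they hold the letters TTTCNNTTTC or, on the other strand, GAAANNGAAA, the pattern of the interferon-stimulated response element. Capitals mark the matches, which overlap in Isg15, and each stretch ends before the annotated gene.
Ifit1, chr19:34640769-34640870, plus strand: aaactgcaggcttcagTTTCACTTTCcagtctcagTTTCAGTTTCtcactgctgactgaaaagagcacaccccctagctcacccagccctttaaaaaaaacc
Ifit3, chr19:34583358-34583477, plus strand: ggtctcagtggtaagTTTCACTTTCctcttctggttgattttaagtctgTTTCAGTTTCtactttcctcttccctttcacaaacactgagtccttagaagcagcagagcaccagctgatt
Ifit3b, chr19:34607754-34607873, plus strand: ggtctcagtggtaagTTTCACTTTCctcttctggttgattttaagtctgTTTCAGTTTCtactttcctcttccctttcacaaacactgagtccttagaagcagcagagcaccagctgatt
Isg15, chr4:156200819-156200938, minus strand: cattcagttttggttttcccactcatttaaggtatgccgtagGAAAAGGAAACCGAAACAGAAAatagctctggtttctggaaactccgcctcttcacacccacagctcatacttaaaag
Rsad2, chr12:26456468-26456587, minus strand: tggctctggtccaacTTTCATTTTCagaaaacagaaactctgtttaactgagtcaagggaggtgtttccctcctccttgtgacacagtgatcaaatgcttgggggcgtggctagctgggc

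All 120 bases of the Ifit3 and Ifit3b stretches were the same, with 2 matches each, and Ifit1 also had 2. Isg15 had 3 overlapping matches and Rsad2 had 1. In the 250 bases before the start site the pattern was found for 3.46% of the 27025 genes in the promoter table and for 4.21% of 3275 genes ranked here. It was found for 18 of 58 genes (31.0%) that were at least 2-fold higher in Ifit-high cells of both libraries, and for 11 of 22 antiviral effectors (50%). The rule's genes were left in the effector set and are not among the 58, so these 2 shares are not alike. Slfn4, Ifit2, Oasl1 and Isg20 had no match in that window, which says only that those letters are not there.

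Within the Ifit-high cells the Ifit sum ran from 30.01 to 262 UMIs per 10000 in control, with a median of 51.7, and from 30.1 to 185 in MCAO, with a median of 53.4. The highest control cells lay above every MCAO cell, and the lower end is set by the limit of 30 in both libraries. In raw counts a cell carried a median of 13 Ifit UMIs in control and 15 in MCAO, and 8 control cells and 0 MCAO cells passed with under 5. All 3 genes had at least 1 UMI in 255 control cells (78.5%) and 144 MCAO cells (79.6%). Only 1 of the 3 genes had a UMI in 5 and 2 cells. Per gene, Ifit3 stood at 28.4 and 23.4, Ifit1 at 19.5 and 21.3 and Ifit3b at 14.3 and 13.95 in control and MCAO Ifit-high cells. In B-lineage cells the sum of the 3 was 1.95 and 1.79, and 0.538% and 0.651% of them reached 30. In monocytes gated on their own markers 2.93% and 0.629% reached 30.

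Just inside, between 30 and 35, lay 45 control and 26 MCAO cells, with Slfn4 at 70.8 and 68.7 UMIs per 10000. Just outside, between 25 and 30, lay 80 control and 24 MCAO cells, with Slfn4 at 79.7 and 69.9. Cells on both sides of the limit were found in both libraries, so the group is a range of Ifit level set by the rule. A further 18 control and 19 MCAO mature neutrophils had an Ifit sum of at least 30 together with a stefin A sum of at least 20 and were left out by the rule.

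The Ifit-high cells made up 25.04% of the 1298 control mature neutrophils (exact binomial 95% interval 22.7 to 27.5%) and 12.8% of the 1413 MCAO mature neutrophils (11.1 to 14.7%). The share in the control library was 1.95 times that in the MCAO library, and the intervals of the 2 libraries did not overlap. Of all cells of the library they were 6.24% and 3.35%. With every cell thinned to 1000 UMIs, which left out 29 and 7 mature neutrophils with fewer, the shares were 31.6% and 14.2%. At Ifit minimums of 15 and 60 the control share was 46.7% and 9.55% and the MCAO share 20.5% and 5.31%. Mature neutrophils with stefin A transcripts were 40 in control (3.08%) and 237 in MCAO (16.8%), and they count in the denominator of these shares. The rule keeps them out of the Ifit-high cells, so they widen the ratio between the libraries.

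Among mature neutrophils with low stefin A the whole distribution of the Ifit sum lay lower in MCAO. No Ifit UMI at all was found in 209 of the control cells (16.6%) and in 488 of the MCAO cells (41.5%). The cells of that bin had medians of 2542 and 3331 UMIs, and the part of depth in these shares was not tested. The bins from 30 to 60 and from 60 to 100 held 16.0% and 6.36% of these cells in control and 9.01% and 4.68% in MCAO. An Ifit sum of 100 or more was found in 44 control cells (3.50%) and 20 MCAO cells (1.70%).

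**Figure D1:**
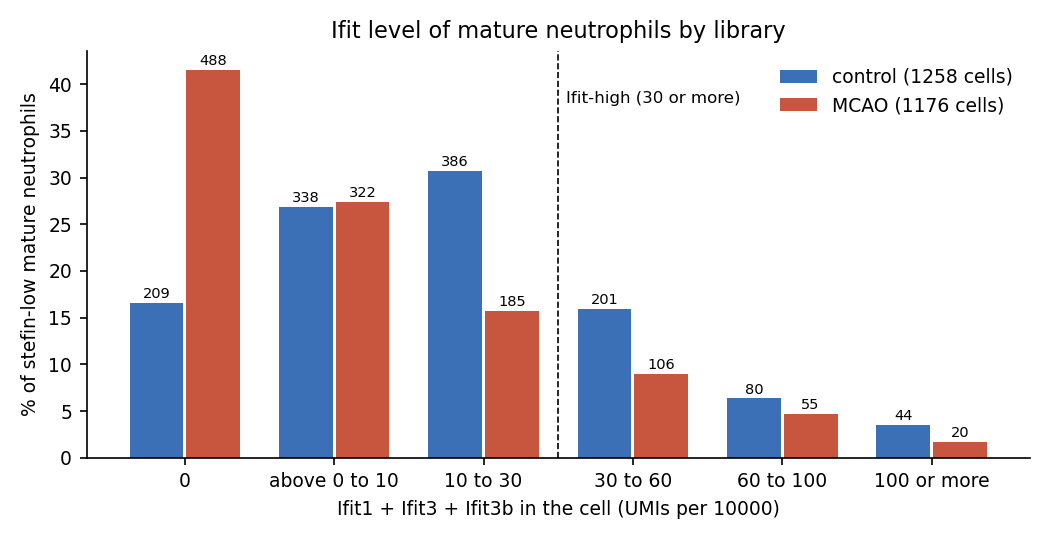
Share of stefin-low mature neutrophils (y axis, percent) in 6 bins of the cell's Ifit1, Ifit3 and Ifit3b sum (x axis, UMIs per 10000), with control in blue, MCAO in red, and the number of cells above each bar. The dashed line is the limit of 30: control bars are taller in every bin to its right, and the MCAO bar is the taller one at 0 (41.5% against 16.6%).

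Slfn4, Rsad2 and Isg15, which the rule did not use, were higher in cells with a high Ifit sum than in cells with none, in both libraries. The 29 antiviral effectors of the list were summed with the rule's 3 Ifit genes left in. Part of the rise of this sum over the bins therefore follows from the binning. In control the sum stood at 62.2 UMIs per 10000 in cells with no Ifit UMI and at 113 in cells with an Ifit sum from 10 to 30. It stood at 142 from 30 to 60 and at 278 at 100 or more. In MCAO the same bins had 34.3, 106, 139 and 249. The libraries therefore lay far apart in cells without Ifit UMIs and close together from 30 to 60. The bins bound the Ifit part of the sum in both libraries, so part of that closeness follows from the binning. At 100 or more the counting intervals were 268 to 289 in control and 235 to 264 in MCAO. Slfn4, a Schlafen gene restricted to myeloid cells, went from 36.4 to 139 in control between the lowest and the highest bin and from 16.3 to 100 in MCAO. Rsad2, which encodes viperin, went from 3.97 to 45.3 and from 1.85 to 49.7. Il1b, encoding interleukin 1 beta, went from 5.47 to 23.02 and from 4.54 to 29.9, and in both libraries its lowest level was in the bin above 0 to 10. Cd177, a neutrophil surface protein gene of the secondary granule list, went the other way, from 15.04 to 8.02 and from 18.2 to 3.6. H2-K1, an MHC class I heavy chain gene, ran from 14.8 to 20 over the control bins and from 8.07 to 11.7 over the MCAO bins, so the gap between libraries was present in every bin.

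Ifit-high cells were next set against Ifit-low cells of their own library over 4110 ranked genes, those with at least 50 UMIs in the cells compared and above 0 in at least 5% of the Ifit-high cells of 1 library. A gene was counted as higher or lower when the levels differed at least 2-fold (log2 ratio of 1, with 0.02 UMIs per 10000 added to each level), and above or below 0 refers to the sign of this log2 ratio. Of all ranked genes 2.53% were higher in control, 4.01% in MCAO and 1.68% (69 genes) in both libraries, while 5.6%, 12% and 3.26% (134 genes) were lower. The median log2 ratio over all ranked genes was -0.08 in control and -0.11 in MCAO, and 43.4% and 43.3% of them lay above 0. The rule used this contrast. The rank filter asked for detection in Ifit-high cells only, so low-count genes that are high in those cells passed more readily. Nothing further is read from the counts of list members against those shares.

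The antiviral effectors, whose products act against viral replication, were described first. Of 29 listed, 24 were ranked. 23 of these lay above 0 in both libraries and 10 were at least 2-fold higher in both, with a median log2 ratio of 0.93 in control and 1.54 in MCAO. Ifit1bl1, an Ifit1-like gene of the same cluster, stood at 0.921 in Ifit-high and 0.044 in Ifit-low control cells, and at 0.663 and 0.048 in MCAO, which was 20.9-fold (95% counting interval 11.7 to 40.1) and 13.9-fold (7.95 to 24.9). Of its 72 control UMIs, 19 came from 1 cell. Ifit2 stood at 2.95 and 0.422 in control (7-fold, 5.64 to 8.73) and at 1.89 and 0.212 in MCAO (8.94-fold, 6.70 to 11.9), and 36 of its 231 control UMIs came from 1 cell. In both libraries Ifit-high cells thus had the higher level of each gene. The counting intervals take every UMI as independent, so they do not cover UMIs gathered in single cells. Both genes lie next to the rule's genes, so their higher levels describe what the rule selected and are not a test. Rsad2 stood at 22.6 and 7.13 in control and at 25.1 and 4.89 in MCAO, with log2 ratios of 1.66 and 2.36. Isg20, an exonuclease gene, had log2 ratios of 1.80 and 2.29, and Oasl1, a relative of the oligoadenylate synthetases, 1.73 and 2.67. Isg15, a ubiquitin-like modifier, stood at 7.09 and 2.36 in control and at 6.68 and 1.15 in MCAO. Bst2 was the 1 ranked effector that did not lie above 0 in both libraries, at -0.40 in control and 0.28 in MCAO. Mx1 and Mx2 did not pass the rank filter, with levels of 0.115 and 0.0895 in control Ifit-high cells.

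**Figure D2:**
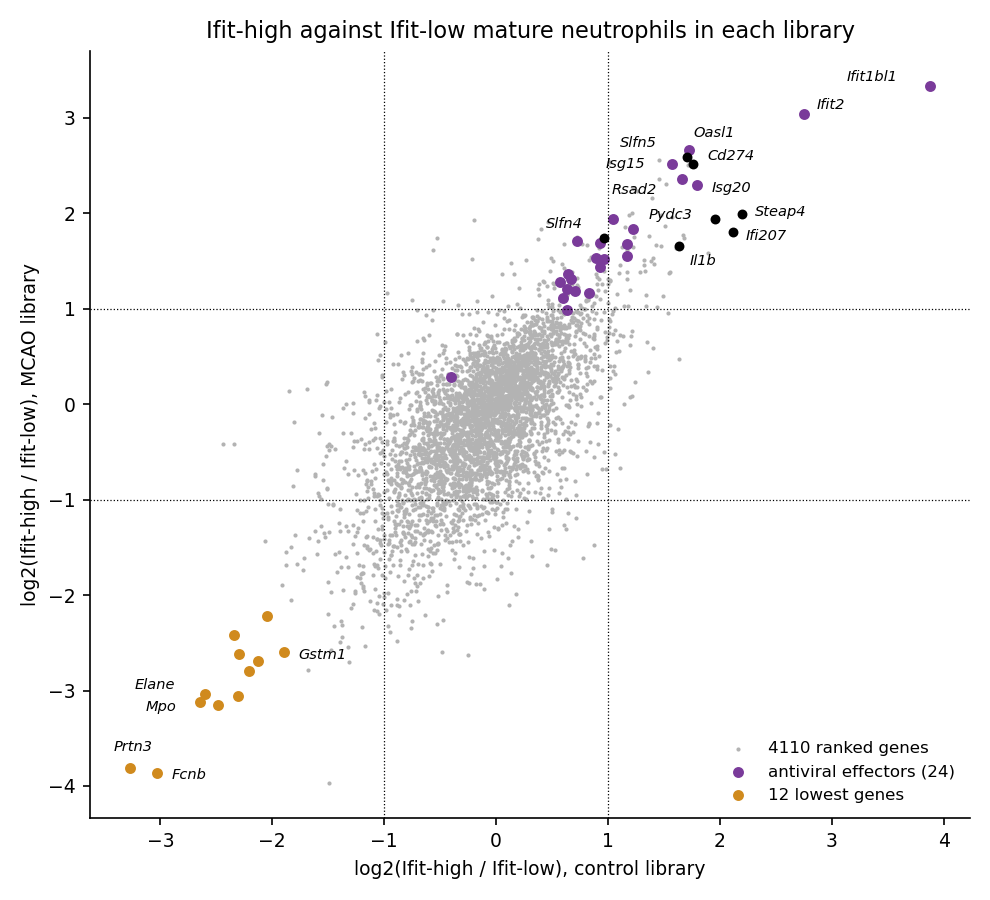
Log2 ratio of Ifit-high over Ifit-low cells in the control (x axis) and MCAO library (y axis) for 4110 ranked genes in grey, with 24 antiviral effectors in purple, the 12 lowest genes by the naming rule in orange, other labelled genes in black and dotted lines at 2-fold. Effectors sit in the upper right with Ifit1bl1 (3.88 and 3.34) and Ifit2 (2.75 and 3.04) furthest out, and the orange genes, led by Prtn3 and Fcnb, sit in the lower left.

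The sensing and signalling genes of the pathway lay above 0 for the most part, with smaller medians. Of 12 RNA and DNA sensors 6 were ranked, with medians of 0.81 and 1.26, and Ifih1, encoding the RNA sensor MDA5, was furthest out at 1.51 and 1.87. Of 14 transcription factors 12 were ranked, 9 lay above 0 in control and 11 in MCAO. Stat2 was at 1.41 and 1.47 and Irf7 at 1.20 and 1.83. Irf8, a factor of the monocyte and dendritic lineages, was lower, at -0.83 and -1.04. The receptor and kinase genes, among them Ifnar1, Ifnar2, Jak1 and Jak2, had medians of 0.17 and 0.32, beside -0.08 and -0.11 over all ranked genes, and 0 of 8 were 2-fold higher in both libraries. Without the early granulocyte cells described below their medians were 0.113 and 0.110. The interferon ligand genes listed, Ifng and Ifnz, had 0 UMIs in Ifit-high cells of both libraries. These 2 were the only ligand genes in the list as used, so other interferon genes are not covered.

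Genes of ISG15 and ADP-ribose conjugation were above 0 in both libraries in 9 of 9 ranked cases, with medians of 0.89 and 1.36. Usp18, which removes ISG15 and dampens receptor signalling, was at 1.66 and 2.35, Herc6, an ISG15 ligase gene, at 1.48 and 1.99 and Parp14 at 1.37 and 1.76. Among feedback genes Cd274, encoding the checkpoint ligand PD-L1, stood at 0.614 and 0.167 in control and at 0.701 and 0.106 in MCAO, which was 3.68-fold (2.44 to 5.54) and 6.61-fold (4.20 to 10.3). Socs3, an inhibitor of JAK signalling, was at 1.19 in both libraries, and at 0.87 in MCAO without the early granulocyte cells described below.

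Other families of interferon-inducible genes were also ranked in part. Of 18 interferon-inducible GTPases 7 passed the rank filter, and 6 of them were 2-fold higher in both libraries, beside 1.68% of all ranked genes. Their medians were 1.40 and 2.01. Gbp2, a guanylate-binding protein gene, was at 1.72 and 2.503, Ifi47 at 1.90 and 1.58, Irgm1 at 1.46 and 2.36 and Igtp at 1.40 and 2.16. Of 7 Schlafen genes 5 were ranked. Slfn5 stood at 23.5 and 7.18 in control (3.27-fold, 3.07 to 3.48) and at 22.4 and 3.72 in MCAO (6.02-fold, 5.59 to 6.49). Slfn4 stood at 95.1 and 48.8 in control (1.95-fold, 1.9 to 2) and at 82.3 and 24.6 in MCAO (3.34-fold, 3.23 to 3.46), against 3.64 and 2.48 in B-lineage cells. Slfn4 was thus well above the B-lineage level in Ifit-low cells too, and its gap between the cell groups was wider in MCAO. Of 11 PYHIN genes, a family that senses DNA, 9 were ranked and 4 were 2-fold higher in both libraries. Pydc3 was at 1.958 and 1.94, Ifi207 at 2.12 and 1.81, Ifi204 at 1.46 and 2.56 and Ifi206 at 1.56 and 1.38, while Mndal and Ifi203, which overlap on the same strand, were at 0.06 and -1.003 and at -0.26 and -0.55. Of 6 Ifitm genes, which encode membrane proteins that restrict virus entry, 4 were ranked. Ifitm1 was at 1.17 and 1.38 and Ifitm6 at -0.52 and -0.47.

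Antigen presentation genes lay on both sides of 0. Of 17 MHC class I genes 16 were ranked and 0 were 2-fold higher in both libraries, with medians of 0.43 and 0.31. The ranked MHC class II genes lay below 0 in 4 of 4 cases in both libraries, with medians of -0.44 and -0.66. The class II list summed to 4.50 and 2.48 in control and MCAO Ifit-high cells and to 86.2 and 143 in B-lineage cells. The part of RNA from other cells in the class II values was not tested. Inflammatory genes were mixed. Il1b stood at 16.6 and 5.33 in control and 12.9 and 4.09 in MCAO, with log2 ratios of 1.63 and 1.66, and Ptgs2, encoding cyclooxygenase 2, at 1.28 and 0.535 and at 0.511 and 0.0908. Tnf was at 0.09 and -0.23 and Nfkbia at 0.05 and -0.12. Of 15 ranked immediate early genes 14 lay above 0 in each library, with medians of 0.54 and 0.87. Atf3 was at 1.68 and 1.74, but 6 of its 12 UMIs in MCAO Ifit-high cells came from 1 cell, and in cells with at least 2000 UMIs its MCAO value was -0.07. Cxcl10, a classical interferon-induced chemokine gene, had 22 UMIs in 2 control cells and 0 in MCAO Ifit-high cells. Ly6i, among the 12 highest genes, had 5 of 8 MCAO UMIs in 1 cell, and Steap4, a metalloreductase gene, was at 2.20 and 1.99.

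Genes of the secondary granules, which form before the last maturation steps, were mostly lower in Ifit-high cells. Of 9 ranked 8 lay below 0 in both libraries and 3 were at least 2-fold lower in both, with medians of -0.97 and -0.94, and without the early granulocyte cells described next -0.91 and -0.86, where 1 in place of 3 was 2-fold lower in both. Ltf, Camp and Ngp are not counted here, since the rule limits their sum. Chil3, a chitinase-like gene of neutrophil precursors, was at -1.30 and -2.13, Anxa3 at -1.60 and -1.57 and Itgb2l at -1.25 and -0.94. Cd177 stood at 8.69 and 15.9 in control and at 12.2 and 18.8 in MCAO. Gelatinase granule genes had medians of -0.15 and 0.27, and of -0.25 and -0.10 without the early granulocyte cells, so the MCAO median turned negative. Mmp8 and Mmp9 were at -0.31 and -0.02 and at -0.24 and 0.23. Surface receptor genes lay above 0 in 18 of 24 cases in control and 21 of 24 in MCAO, with medians of 0.32 and 0.62. Without the early granulocyte cells the counts were 16 and 19 and the medians 0.17 and 0.32. Clec7a, encoding the fungal glucan receptor dectin-1, was at 1.32 and 1.46 and Hcar2, a hydroxycarboxylic acid receptor gene, at 1.19 and 1.98, and these 2 were the ones at least 2-fold higher in both. Csf3r was at 0.89 and 0.95, and the marrow retention receptor gene Cxcr4 at 0.01 and 0.00.

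The lowest genes of this contrast depended on early granulocyte cells inside the Ifit-low group. The 12 lowest by the naming rule were Prtn3, Fcnb, Mpo, Elane, Nkg7, P4hb, Gatm, Lta4h, Tmed3, Serpinb1a, Smc2 and Gstm1. Prtn3, a primary granule protease gene, stood at 0.985 and 9.66 in control and at 1.42 and 20.2 in MCAO. Cells with Mpo, Elane, Prtn3 and Fcnb summing to at least 40 were 28 of 933 Ifit-low cells in control (3.001%) and 75 of 995 in MCAO (7.54%), and 0 in Ifit-high cells of either library. Without these cells, the number of genes 2-fold lower in both libraries went from 134 to 8, and Serpinb1a was the 1 of the 12 that remained among them, while the number 2-fold higher went from 69 to 55. The effector medians were 0.83 and 1.22 without these cells, and the sensors above 0 in MCAO were 4 of 6 in place of 6. This exclusion was added after the data were seen.

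Between libraries, most interferon genes of the Ifit-high cells lay within 2-fold. Over 2923 ranked genes, 0.924% were at least 2-fold higher in MCAO Ifit-high cells and 1.95% at least 2-fold lower, with a median log2 ratio of MCAO over control of -0.02 and 47.9% of genes above 0. The rule held the Ifit sum at 30 or more in both libraries, with summed levels of 62.1 and 58.6, while in Ifit-low cells it was 9.02 in control and 3.89 in MCAO. Of the 24 ranked effectors 12 lay above 0 and 12 below, with a median of 0.01 in Ifit-high cells and -0.55 in Ifit-low cells. The interferon-inducible GTPases had medians of 0.05 and -0.68 in the same order, the sensors -0.04 and -0.44, and the Schlafen genes -0.15 and -0.94. Ifit3 had a ratio of 0.822 (0.766 to 0.882) in Ifit-high cells and Ifit1 of 1.09 (1.01 to 1.18). The difference between the 2 cell groups was not tested, and these genes vary with the Ifit level that defines the groups.

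**Figure D3:**
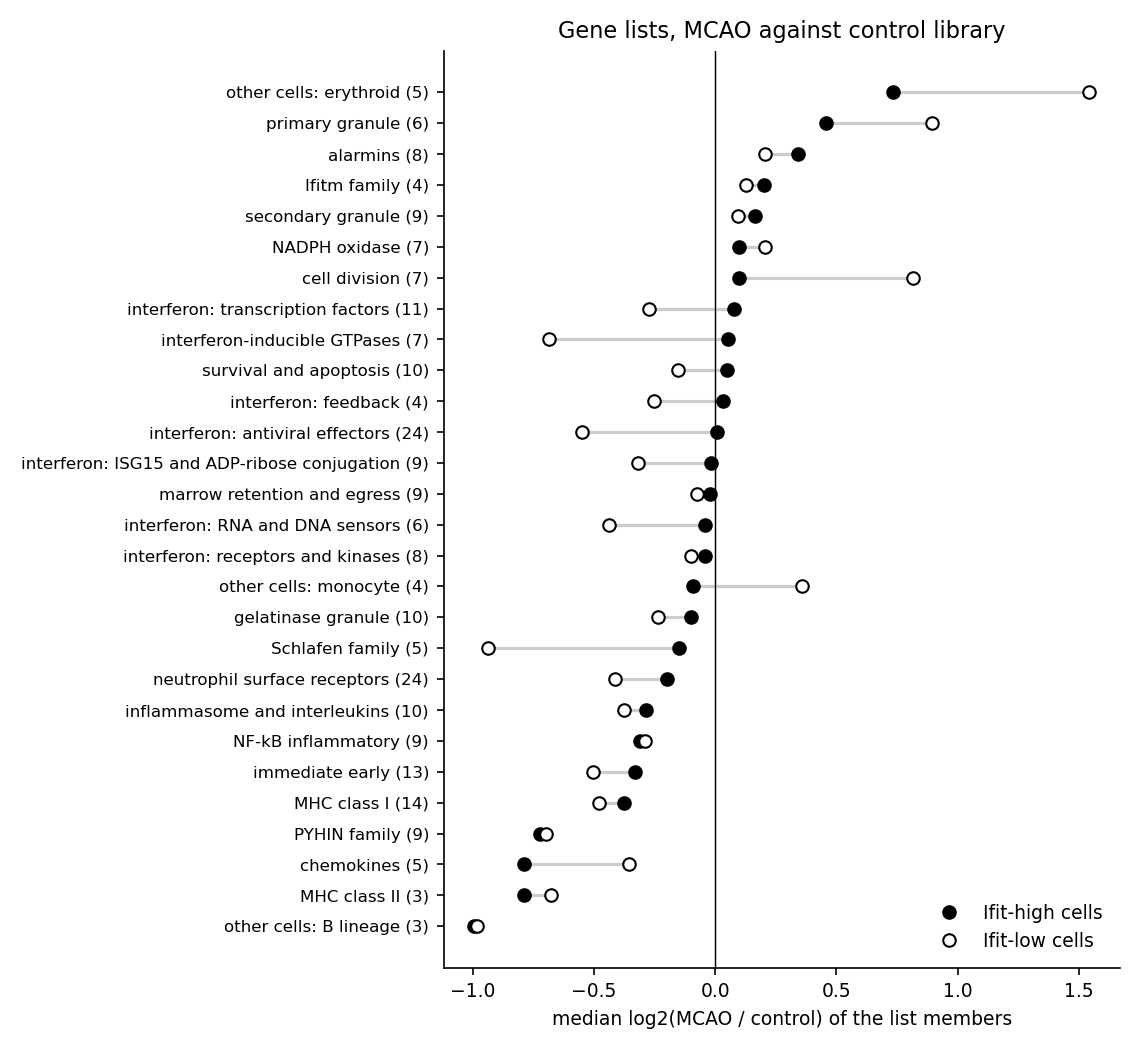
Median log2 ratio of MCAO over control (x axis) for each gene list with at least 3 ranked genes (y axis, number of ranked genes in brackets), in Ifit-high cells (filled) and Ifit-low cells (open). Effectors, GTPases and Schlafen genes have filled points near 0 and open points to the left, whereas PYHIN and MHC class I lists have both points to the left of 0.

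Some interferon-inducible families were lower in MCAO within the Ifit-high cells. The PYHIN genes lay below 0 in 9 of 9 cases, with a median of -0.72 (-0.70 in Ifit-low cells), and 4 were at least 2-fold lower. Ifi206 stood at 1.48 in control and 0.454 in MCAO (ratio 0.306, 0.189 to 0.478) and Pydc3 at 1.33 and 0.511 (0.384, 0.242 to 0.591). Both were also lower in MCAO Ifit-low cells, at 0.491 and 0.162 and at 0.327 and 0.119. At an Ifit minimum of 15 the log2 ratio of Ifi206 was -0.96 in place of -1.66. The MHC class I genes lay below 0 in 11 of 14 ranked cases, with a median of -0.38 (-0.48 in Ifit-low cells), and 4 were at least 2-fold lower. H2-Q6, a Qa-2 class gene, stood at 2.17 and 0.511 (ratio 0.235, 0.151 to 0.354) and its neighbour H2-Q7 at 1.47 and 0.360 (0.245, 0.142 to 0.399). These 2 genes are close copies, so their split is uncertain. H2-K1 stood at 18.6 and 9.01, H2-D1 at 87.8 and 64.5 and B2m, the shared light chain gene, at 36.7 and 22.4. In B-lineage cells H2-K1 stood at 26.8 and 22.9 and B2m at 34.0 and 28.4. H2-Q6 stood there at 7.88 and 5.64 and H2-Q7 at 3.82 and 2.73, above their levels in Ifit-high cells. Ifi206 at 2.64 and 2.65 and Pydc3 at 1.43 and 0.943 were also higher in B-lineage cells. The PYHIN list summed to 44.8 and 38.9 there, against 17.7 and 13.3 in Ifit-high cells. The part of RNA from other cells in these differences was not tested. Psmb8 and Psme1, proteasome genes of the same list, lay above 0 at 0.29 and 0.44.

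Thbs1 (chr2:118111876-118127133, plus strand), encoding the matrix protein thrombospondin 1, was the lowest gene of the comparison. An antisense gene overlaps it, and whether counting used strand is not stated in the labels. Genes on the other strand also overlap further genes given here, among them Slfn5, Il1b, Ube3a, B2m, Oasl1, Usp18, Atf3, Qsox1 and Ctnnbip1. Thbs1 stood at 3.86 in control and 0.511 in MCAO Ifit-high cells, from 302 and 27 UMIs, a ratio of 0.132 (0.0858 to 0.196). In Ifit-low cells the ratio was 0.0986 (0.0842 to 0.115). Ccl4, a chemokine gene, stood at 0.537 and 0.151, the latter from 8 UMIs in 4 cells, and at 0.0951 without the 1 cell that held 3 of them. Its log2 ratio was -0.86 in cells with at least 2000 UMIs. Of the 5 ranked chemokine genes Ccl3 and Ccl4 were at least 2-fold lower, at -1.30 and -1.70, and Ccl6 was at -0.16. Hcar2 stood at 3.81 and 1.59 in Ifit-high cells and at 1.66 and 0.389 in Ifit-low cells. Ptgs2 was at -1.29. Vpreb3, a pre-B cell gene, stood at 0.78 and 0.189 and had its high level in B-lineage cells, where its level was 24.1 and 14.01. Ftl1, a ferritin light chain gene that overlaps other annotated genes, stood at 0.691 and 0.170. Ube3a, Mrps23 and Fbxl20 complete the 10 lowest. They had 11, 9 and 11 UMIs in MCAO, and 5 of the 11 of Ube3a came from 1 cell. Over the alternatives the log2 ratio nearest 0 was -0.43 for Ube3a, -0.49 for Mrps23 and -0.85 for Fbxl20, which is within 2-fold.

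Wfdc17 (chr11:83703991-83706268), encoding a small secreted protein of the whey acidic protein family, was the highest gene in MCAO. It stood at 3.45 in control and 11.02 in MCAO Ifit-high cells, from 270 and 582 UMIs, a ratio of 3.19 (2.76 to 3.70), with 1.31 and 3.89 in Ifit-low cells (2.98, 2.67 to 3.32) and 0.300 and 0.642 in B-lineage cells. The other 9 of the 10 highest were Arrdc4, Pja2, Ncbp3, Qsox1, Ctnnbip1, Rpl29, Aph1b, Ctsc and Yaf2, each with at most 60 UMIs in MCAO Ifit-high cells. Over the alternatives the log2 ratio of 7 of them went below 1, down to 0.53 for Ncbp3, 0.58 for Rpl29, 0.59 for Pja2 and Ctsc, 0.60 for Yaf2, 0.85 for Ctnnbip1 and 0.94 for Aph1b. Arrdc4, an arrestin domain gene, had a ratio of 3.18 (1.83 to 5.71) in Ifit-high and 0.672 (0.499 to 0.905) in Ifit-low cells, and Ctsc, encoding the cathepsin that activates granule proteases, 2.49 (1.43 to 4.43) and 1.94 (1.59 to 2.37). The alarmin list lay above 0 in 7 of 8 ranked cases, with a median of 0.34 (0.21 in Ifit-low cells), and Wfdc17 belongs to it. The 4 ranked Ifitm genes lay above 0, led by Ifitm1 at 7.50 and 14.05. Ly6g, the surface antigen used to sort mouse neutrophils, stood at 5.999 and 11.6 in Ifit-high cells and at 8.74 and 8.47 in Ifit-low cells. Cd177 stood at 8.69 and 12.2.

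**Figure D4:**
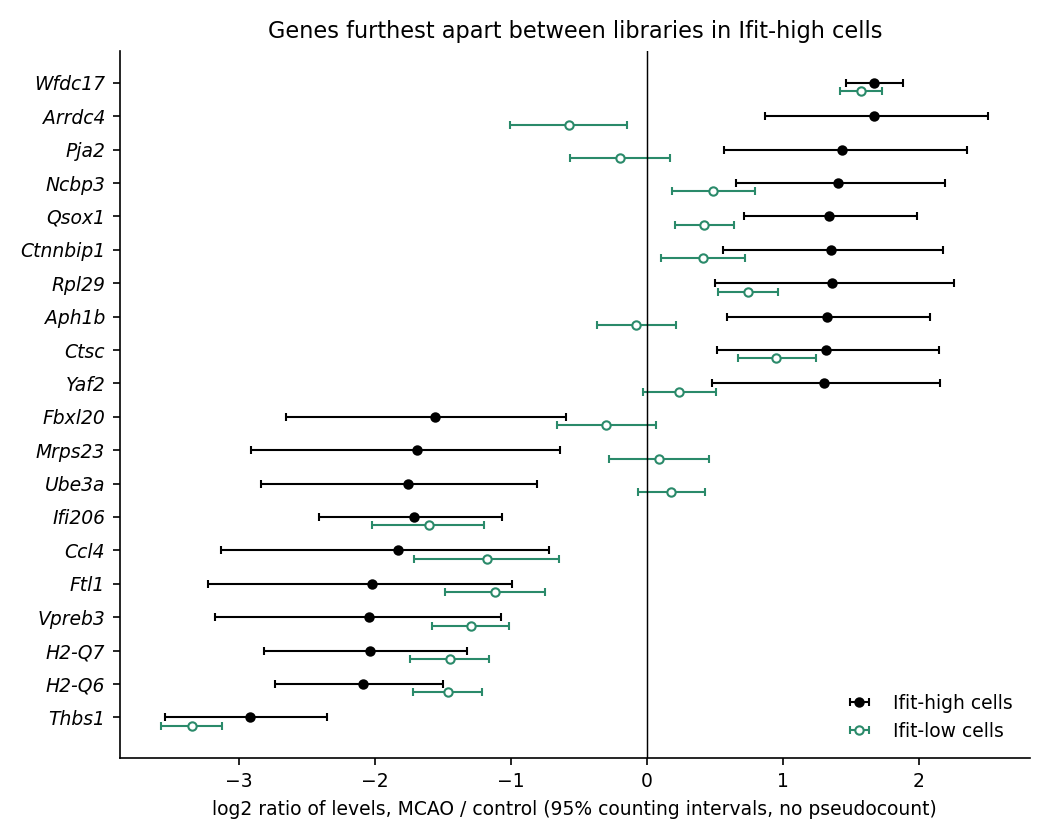
Log2 ratio of MCAO over control with 95% counting intervals (x axis, no pseudocount) for the 10 highest and 10 lowest genes in Ifit-high cells (black), with the same genes in Ifit-low cells (green, open). Wfdc17 and Thbs1 lie at the 2 ends with narrow intervals and similar values in both cell groups, while the low-count genes between them have wide intervals.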

How the data were processed

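Whole-transcriptome libraries of unsorted mouse marrow, 1 control and 1 MCAO, were analysed. The deposited file of the authors gives natural log values for 25943 genes and 10610 cells, with fastp, STAR, UMI-tools, Seurat 4.0.6 and build mm10 named in the submitters' processing notes. From the values, the counts of each cell were scaled to a total of 10000 before 1 was added and the logarithm taken. Whole UMIs were recovered for 100% of 19373615 values (tolerance 0.01). Columns were assigned by name prefixes, the Mandarin words for control and stroke.

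Levels are summed UMIs per 10000 with exact Poisson 95% intervals, shares have exact binomial (Clopper-Pearson) intervals, and ratios have exact conditional intervals, all for counting error only. Named genes are the 12 highest and 12 lowest of Ifit-high over Ifit-low by the library nearer 0, the 10 highest and 10 lowest of MCAO over control, and up to 5 members furthest from 0 of a described list. Isg15, Bst2, Mx1, Mx2, Cxcl10, Tnf, Nfkbia, Ifi203, H2-D1, Psmb8, Psme1, Cxcr4 and the genes shown by Ifit bin were chosen after their values were seen. 1 gene that the naming rule takes is not reported here. Members, rule and all 33 lists were chosen with earlier results of these data known. The intervals and calls were tested on simulated counts. Doublets were scored with Scrublet in scanpy 1.11.5 and kept. Analyses used Python 3.11.15, numpy 2.4.6 and scipy 1.17.1.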

Additional observations from a re-analysis of the deposited data

How the results depend on the processing

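The main results that moved were as follows. At an Ifit minimum of 15 the shares were 46.7% and 20.5%, a difference of -26.2 points, and 17 genes were 2-fold higher in MCAO. At a minimum of 60 they were 9.55% and 5.31%, a difference of -4.25 points, with 110 genes higher in Ifit-high cells of both libraries and 25 lower in MCAO. In cells with at least 2000 UMIs the control share was 21.7% and 203 genes were lower in both libraries. With cells thinned to 1000 UMIs the control share was 31.6% and the difference -17.4 points. With the Ltf, Camp and Ngp limit at 200 the shares were 28.6% and 14.9%, with 45 genes higher and 36 lower in both libraries. A pseudocount of 0.1 gave 82 genes lower in both libraries, 15 higher in MCAO and 33 lower. A minimum of 10 UMIs with no cell share gave 982, 261 and 466. The mean of per-cell levels gave 21 lower genes and an MCAO effector median of 1.26. Leaving out early granulocyte cells, chosen after the data were seen, gave 8 lower genes and an effector median of 1.22, and changed the sign of Fcnb (0.35), Gatm (0.078) and Gstm1 (0.031) in control and of Elane in control (0.038) and MCAO (0.13). Atf3 in MCAO was -0.073 in cells with at least 2000 UMIs. Of 630 gene values 624 kept their sign, and of 912 list medians 874 did. Marked doublets moved none of the main results. Beyond the construction of each alternative, the cause was not tested. No paired analysis was possible because each condition had 1 library.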
